A study of Mus musculus with 73 samples.

Results

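Cholesterol synthesis, sterol transport and their control by the SREBP system were followed through 26 named genes, all of which were found among the 25220 gene symbols of the deposited expression table. The genes were taken by name in the order of the pathway, not by their values. They comprise 18 enzymes from acetyl-CoA to cholesterol, 2 transcription factor genes, 3 genes that control those factors and 3 genes of sterol transport. Other enzymes and uptake receptors of the pathway were not analysed here. RNA-seq was available for 3 groups of mouse embryos of a hybrid C57BL/6 and C3H background, cultured in KSOM medium. There were 3 libraries of p150DN 8-cell embryos, 2 libraries of EGFP blastocysts and 3 libraries of EGFP 8-cell embryos. p150 is the largest protein of chromatin assembly factor 1, a histone chaperone complex that works behind the replication fork, and DN is read as a dominant-negative form. EGFP, a fluorescent protein, marks the control embryos. How p150DN and EGFP were introduced, and how many embryos were pooled per library, is not given in the sources used here. Nothing in the labels says that replicates came from separate litters, so a p-value reflects only how much these libraries scatter, and that scatter may be technical.

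Cells make cholesterol from acetyl-CoA through mevalonate, the isoprenoid diphosphates, squalene and lanosterol. SREBP2, encoded by Srebf2, is the main activator of these enzyme genes, and SREBP1, encoded by Srebf1, acts more on fatty acid synthesis. Both are made as membrane proteins of the endoplasmic reticulum, where SCAP escorts them to the Golgi apparatus for cleavage when sterols are low, and INSIG1 and INSIG2 hold them back when sterols are high. The preimplantation embryo develops without a blood supply, and at the blastocyst stage it forms its first epithelium, the trophectoderm.

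SREBP proteins bind the sterol regulatory element of a promoter, often beside sites for the factors NF-Y and SP1. Promoter windows of 300 bases were available from RefSeq (GRCm38.p6) for 21 of the 26 genes, in 29 windows. Those printed here, the first where a gene has 2 windows, belong to the gene with the largest called rise and the gene with the largest called fall in each comparison that had a window (Pmvk, Srebf2, Msmo1 and Scap, with Srebf2 under both), with Insig1 and Hmgcs1 added after the windows were read because Insig1 is a well known SREBP target and Hmgcs1 holds the full element core. Capitals mark the sterol element core TCACNCCAC or its short form TCACCCCA, the CCAAT box on either strand (CCAAT or ATTGG) and the E-box CACGTG.
Pmvk, chr3:89454291-89454590, plus strand: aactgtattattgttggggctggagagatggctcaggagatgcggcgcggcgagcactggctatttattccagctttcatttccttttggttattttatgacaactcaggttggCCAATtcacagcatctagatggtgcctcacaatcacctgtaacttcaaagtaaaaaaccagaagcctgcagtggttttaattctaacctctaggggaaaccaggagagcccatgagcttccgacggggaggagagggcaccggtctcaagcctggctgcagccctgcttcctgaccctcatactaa
Srebf2, chr15:82147019-82147318, plus strand: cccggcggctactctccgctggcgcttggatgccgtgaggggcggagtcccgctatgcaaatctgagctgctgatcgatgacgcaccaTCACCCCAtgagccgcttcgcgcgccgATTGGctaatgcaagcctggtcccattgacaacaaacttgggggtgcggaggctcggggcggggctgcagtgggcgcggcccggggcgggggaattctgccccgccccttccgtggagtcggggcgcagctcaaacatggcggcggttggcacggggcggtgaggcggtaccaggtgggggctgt
Msmo1, chr8:64733529-64733828, minus strand: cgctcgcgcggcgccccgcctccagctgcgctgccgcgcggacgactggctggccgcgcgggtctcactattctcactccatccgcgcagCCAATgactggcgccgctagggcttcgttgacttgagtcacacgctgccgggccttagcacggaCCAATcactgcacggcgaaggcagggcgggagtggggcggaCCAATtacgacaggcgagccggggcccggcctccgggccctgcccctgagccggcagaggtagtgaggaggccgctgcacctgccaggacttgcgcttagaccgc
Insig1, chr5:28071162-28071461, plus strand: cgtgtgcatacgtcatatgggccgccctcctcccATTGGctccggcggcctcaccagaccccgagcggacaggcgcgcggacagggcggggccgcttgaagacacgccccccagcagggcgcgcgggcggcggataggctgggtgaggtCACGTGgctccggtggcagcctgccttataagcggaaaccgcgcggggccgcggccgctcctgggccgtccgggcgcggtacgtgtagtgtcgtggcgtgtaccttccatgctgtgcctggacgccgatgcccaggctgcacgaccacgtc
Scap, chr9:110333038-110333337, plus strand: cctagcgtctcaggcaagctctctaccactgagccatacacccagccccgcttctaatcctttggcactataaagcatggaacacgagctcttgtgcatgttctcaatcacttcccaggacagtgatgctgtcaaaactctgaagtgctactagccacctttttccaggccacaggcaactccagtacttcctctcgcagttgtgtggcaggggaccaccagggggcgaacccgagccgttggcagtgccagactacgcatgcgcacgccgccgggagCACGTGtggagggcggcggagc
Hmgcs1, chr13:119690101-119690400, plus strand: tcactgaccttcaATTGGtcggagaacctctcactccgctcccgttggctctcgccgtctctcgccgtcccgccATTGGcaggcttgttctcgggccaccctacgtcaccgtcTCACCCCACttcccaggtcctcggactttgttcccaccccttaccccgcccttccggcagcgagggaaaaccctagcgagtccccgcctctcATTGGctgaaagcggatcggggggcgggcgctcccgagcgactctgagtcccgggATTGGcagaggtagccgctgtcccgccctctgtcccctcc
The core TCACNCCAC, searched on both strands, was found in 1.24% of all 32851 promoter windows and in 1 window of these genes, that of Hmgcs1, where it began 137 bases before the start. The short form TCACCCCA, which overlaps the core and was added after the Srebf2 window was seen, was in 1.56% of all windows and also in that of Srebf2, 162 bases before its start. The CCAAT box, the site of NF-Y, was present in 69% of the windows of these genes and in 37.4% of all windows. The GC box GGGCGG, a site of SP1, was present in 82.8% and 35.7%, and the E-box in 20.7% and 7.15%. The 2 windows of Scap overlap and share 1 E-box, so that 5 of the 21 genes held one. The windows of these genes were not matched to all windows for GC content. Msmo1 held 3 CCAAT boxes and Hmgcs1 held 4. A match is a stretch of letters and was not examined for binding.

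The libraries held 16578221 to 22488477 counted fragments, recovered from the values. At this depth the genes rested on as few as 11 fragments in a library for Tm7sf2, 16 for Insig2 and 27 for Mvk, and on 1840 to 4277 for Fdft1. Chaf1a, which encodes p150, stood at 165, 254 and 238 FPKM in p150DN libraries, at 26.5 and 27.2 FPKM in blastocysts and at 27.7, 30.2 and 28.8 FPKM in EGFP 8-cell libraries, and transcripts of the embryo's own gene and of an introduced sequence cannot be told apart. The p150DN libraries 2 and 3 stood apart by 20465 and 21282 genes above 0, against 18412 in library 1, 18991 and 18547 in blastocysts and 17310 to 18402 in EGFP 8-cell libraries. The summed level of 7 trophectoderm markers was 330 to 529 FPKM in p150DN, 1110 to 1168 FPKM in blastocyst and 101 to 119 FPKM in EGFP 8-cell libraries. Every p150DN library lay above every EGFP 8-cell library for 6 of them (Cdx2, Gata3, Krt8, Krt18, Eomes and Elf5). Tfap2c, the largest term of the EGFP 8-cell sum, lay below, at 64.9 to 76.3 FPKM in p150DN libraries against 80.7 to 94 FPKM in EGFP 8-cell libraries. The 4 inner cell mass markers summed to 430 to 634 FPKM in p150DN, 830 to 886 FPKM in blastocyst and 272 to 415 FPKM in EGFP 8-cell libraries. Pou5f1, the largest term, overlapped between the 8-cell groups, at 389 to 535 FPKM in p150DN and 235 to 391 FPKM in EGFP libraries. Fgf4 overlapped as well. Nanog and Sox2 were higher in every p150DN library than in every EGFP 8-cell library. The 4 primitive endoderm markers overlapped in sum, at 102 to 146, 143 to 151 and 117 to 177 FPKM in p150DN, blastocyst and EGFP 8-cell libraries. Gata4 among them stood at 5.89 to 10 FPKM in p150DN, 0.712 and 0.718 FPKM in blastocyst and 39.6 to 54.9 FPKM in EGFP 8-cell libraries. Pdgfra went the other way between the 8-cell groups, at 2.66 to 4.46 FPKM in p150DN and 1.83 to 2.24 FPKM in EGFP libraries. Gata6 and Sox17 overlapped between those groups. The 5 oocyte markers summed to 32.6 to 66.7, 8.95 to 9.44 and 66.6 to 87.3 FPKM in p150DN, blastocyst and EGFP 8-cell libraries. The 10 markers of cumulus and granulosa cells, which make steroids around the oocyte, summed to 1.21 to 2.44, 0.99 to 1.07 and 0.672 to 1.28 FPKM in the same order of groups, and Has2 was listed at 0 in every 8-cell library. The 5 fibroblast markers summed to 0.558 to 1.92 FPKM in p150DN, 0.678 to 0.718 FPKM in blastocyst and 0.0081 to 0.185 FPKM in EGFP 8-cell libraries. The 3 blood markers summed to at most 0.649 FPKM in any library, with Hbb-bs at 0 in all. The part of embryo stage markers and of the number of genes detected in the results that follow was not tested.

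The 26 genes covered a wide range of levels per length. In EGFP 8-cell embryos, squalene synthase (Fdft1, 53.2 ± 1.80 FPKM), the lysosomal sterol carrier Npc2 (51.5 ± 2.85 FPKM) and farnesyl diphosphate synthase (Fdps, 43.8 ± 13.4 FPKM) stood highest (SD, n = 3), and their order was within the spread. Srebf2 and Insig2 were the lowest there, at 0.843 ± 0.0856 and 0.425 ± 0.199 FPKM (SD, n = 3). The same 3 genes led in p150DN embryos, where Npc2 averaged 55.6 FPKM, Fdft1 52 FPKM and Fdps 48.9 FPKM, and Msmo1 came next at 44.7 FPKM. In blastocysts Fdps stood first at 57.1 FPKM and Insig1 second at 47.3 FPKM. Insig1 was seventh in p150DN and eleventh in EGFP 8-cell embryos. Tm7sf2, a sterol reductase gene, was the lowest in p150DN embryos and in blastocysts. The summed level of all 26 genes was 386, 415 and 439 FPKM in p150DN libraries, 446 and 419 FPKM in blastocysts and 315, 357 and 317 FPKM in EGFP 8-cell libraries.

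**Figure D1:**
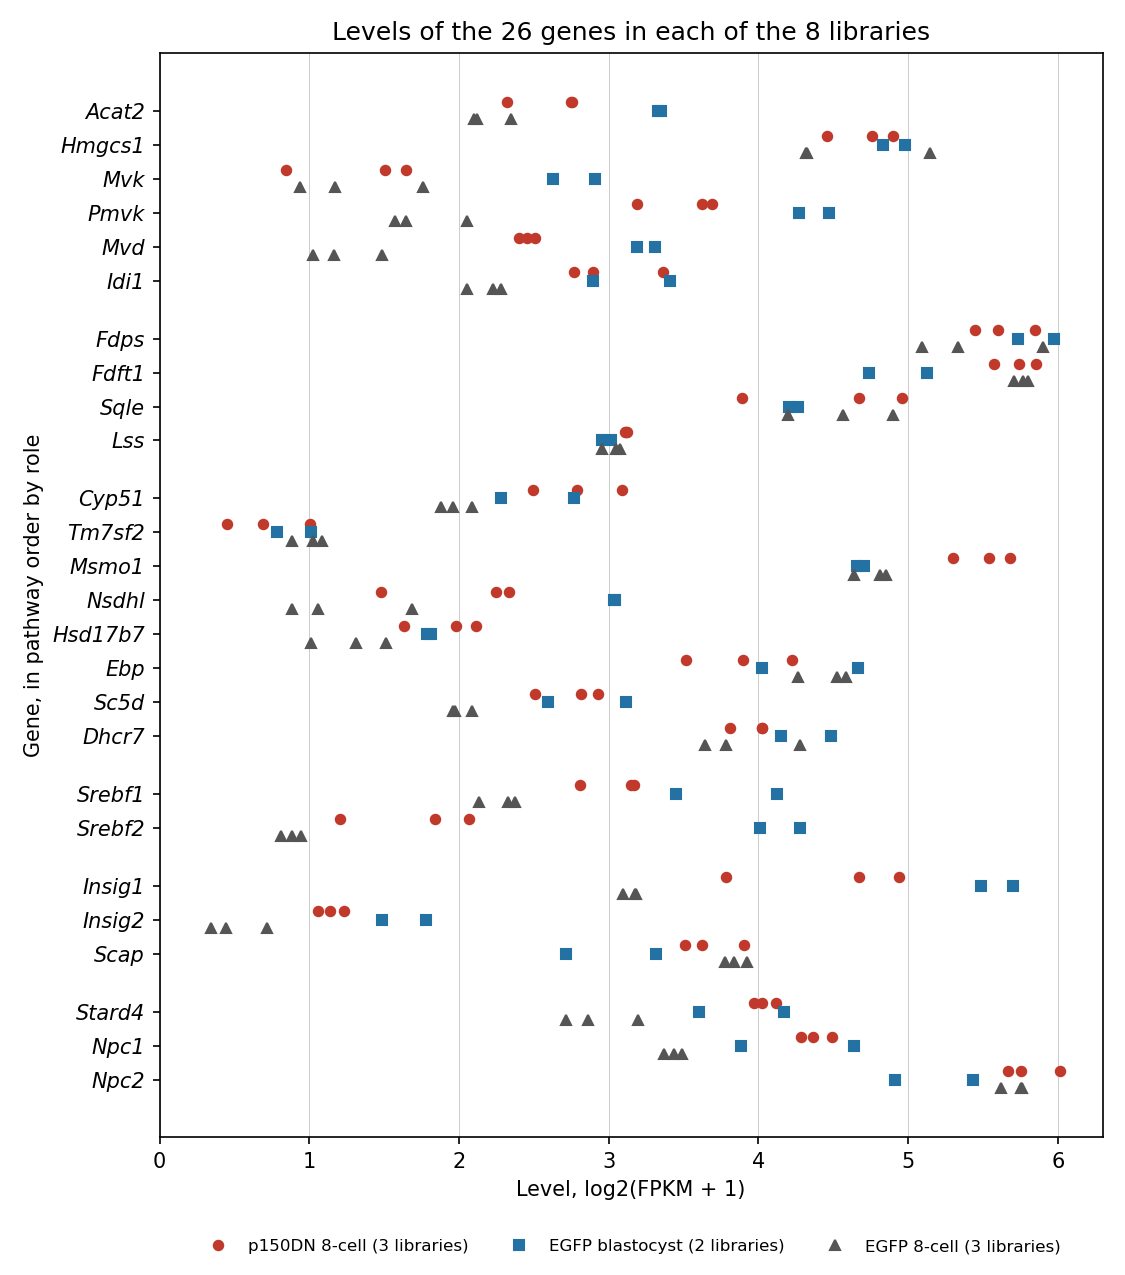
Level of each of the 26 genes in every library, as log2(FPKM + 1), with genes in pathway order and one dot per library. p150DN 8-cell, EGFP blastocyst and EGFP 8-cell libraries are drawn in separate colours. The isoprenoid and squalene genes Fdps and Fdft1 sit near the top in all groups, while Srebf2 and Insig1 are far apart between blastocysts and EGFP 8-cell embryos.

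The first comparison asked which of these genes differ between p150DN and EGFP embryos at the 8-cell stage. In p150DN embryos 12 of the 26 genes rose and none fell (limma on log2(FPKM + 1), adjusted p below 0.05 over all genes tested), while 14 did not pass. Across all 11730 genes tested, 24.6% were called higher and 9.68% lower, 34.3% in all. The genes that rose were 3 of 6 early enzymes, 3 of 8 sterol enzymes, both SREBP genes, both Insig genes, Stard4 and Npc1. Acat2, Hmgcs1 and Mvk, the first enzymes in the order, and Dhcr7, the last, did not pass. Of the 4 enzymes between the early and the sterol enzymes, from Fdps to Lss, 0 passed in limma. Of these, 0 had an unadjusted p below 0.05, and 4 genes are too few to set against the share over all genes. At an unadjusted p below 0.05, 14 of the 26 genes were higher and 1 (Ebp) lower. Over all 11730 genes tested, 3730 were higher and 1623 lower at that threshold. All 26 genes passed the filter on low values, but Srebf2 and Insig2 lay below 1 FPKM in every EGFP 8-cell library and so entered through their p150DN values. With no filter on low values neither of these genes was called. The median log2 fold change of the 26 genes was 0.64, beside 0.19 over all genes tested. With a filter of 5 FPKM, which 16 of the 26 genes passed, these medians were 0.15 and 0.10, and without p150DN libraries 2 and 3 they were 0.30 and 0.14. In a bulk library fewer cells of a type and less RNA per cell cannot be told apart.

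Pmvk, the phosphomevalonate kinase gene (chromosome 3, 89454541 to 89469014, GRCm38.p6), gave the largest rise. It stood at 11.3, 8.13 and 11.9 FPKM in p150DN libraries, against 3.15, 1.97 and 2.12 FPKM in EGFP 8-cell libraries. The groups did not overlap, and the log2 fold change was 1.75 ± 0.22 (SE; limma, adjusted p = 0.00081). Mvd, whose product decarboxylates mevalonate diphosphate at the next step, stood at 4.48, 4.28 and 4.69 FPKM in p150DN libraries, against 1.03, 1.25 and 1.80 FPKM in EGFP libraries. The p150DN libraries lay close together and above every EGFP library, with a log2 fold change of 1.23 (limma, SE 0.20, adjusted p = 0.00231). Idi1, the isopentenyl diphosphate isomerase gene, stood at 9.30, 5.81 and 6.44 FPKM, against 3.87, 3.67 and 3.16 FPKM in EGFP libraries (log2 fold change 0.82 ± 0.21 SE; limma, adjusted p = 0.0154). Its p150DN library 1 was the highest, and the call was lost without EGFP 8-cell library 3 (limma, adjusted p = 0.0527).

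The other early enzymes did not pass. Acat2, a cytosolic thiolase that joins acetyl-CoA units, stood at 4.00, 5.76 and 5.72 FPKM in p150DN libraries and at 3.35, 4.10 and 3.29 FPKM in EGFP 8-cell libraries. Its log2 difference was 0.42 with a 95% interval of -0.03 to 0.87. Hmgcs1, the HMG-CoA synthase gene, stood at 26.1, 21 and 28.8 FPKM in p150DN libraries and at 19.1, 34.4 and 18.9 FPKM in EGFP libraries, and its EGFP library 2 was the highest of the 6. For Hmgcs1 the interval ran from -0.43 to 0.65. For Mvk, the mevalonate kinase gene that acts just before Pmvk, it ran from -0.62 to 0.70, with 1.84, 0.797 and 2.12 FPKM in p150DN libraries and 0.915, 1.26 and 2.39 FPKM in EGFP libraries. Hmgcs1 and Mvk both overlapped between the groups.

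None of the 4 isoprenoid and squalene enzymes passed. Fdft1 stood at 56.8, 52.5 and 46.7 FPKM in p150DN libraries and at 54.9, 51.3 and 53.4 FPKM in EGFP libraries, a log2 difference of -0.04 (95% interval -0.31 to 0.24). Fdps stood at 47.4, 42.7 and 56.6 FPKM in p150DN libraries and at 39.3, 58.8 and 33.2 FPKM in EGFP libraries, with an interval of -0.29 to 0.66. Both intervals leave out a doubling on this scale. Sqle, squalene epoxidase, varied widely within groups, with 13.9, 30.1 and 24.5 FPKM in p150DN libraries and 22.7, 28.9 and 17.4 FPKM in EGFP libraries (interval -0.69 to 0.59). Lss, lanosterol synthase, stood at 7.62, 7.66 and 7.69 FPKM in p150DN libraries, against 7.41, 6.74 and 7.28 FPKM in EGFP libraries. Its groups did not overlap, yet the log2 difference was 0.09 and did not pass (limma, adjusted p = 0.683).

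Among the sterol enzymes, Msmo1, Cyp51 and Sc5d rose. Msmo1, the methylsterol monooxygenase gene that acts on sterol methyl groups after Cyp51 (chromosome 8, 64718123 to 64733578), stood at 45.5, 38.4 and 50.2 FPKM in p150DN libraries, against 27.1, 24 and 28 FPKM in EGFP libraries. Every p150DN library lay above every EGFP library, and the log2 fold change was 0.74 ± 0.14 (SE; limma, adjusted p = 0.00527). Cyp51, lanosterol demethylase, stood at 4.65, 5.90 and 7.52 FPKM, against 2.89, 3.25 and 2.68 FPKM in EGFP libraries (log2 fold change 0.82 ± 0.20 SE; limma, adjusted p = 0.0153). Sc5d, a sterol desaturase, stood at 4.69, 6.62 and 6.03 FPKM, against 2.88, 2.92 and 3.24 FPKM in EGFP libraries (log2 fold change 0.75 ± 0.19 SE; limma, adjusted p = 0.0152). The EGFP values of both were tightly grouped and lay below all p150DN values. The Cyp51 call was lost without p150DN library 3, EGFP 8-cell library 1 or EGFP 8-cell library 3 (limma, adjusted p = 0.0608, 0.0541 and 0.0511). That of Sc5d was lost without p150DN library 3 or EGFP 8-cell library 1 (limma, adjusted p = 0.0549 and 0.0589).

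Ebp, the sterol isomerase gene, was the one member whose libraries lay wholly below those of EGFP 8-cell embryos. It stood at 10.4, 13.9 and 17.7 FPKM in p150DN libraries and at 23.1, 22.1 and 18.2 FPKM in EGFP libraries, with a log2 difference of -0.58 ± 0.20 (SE; limma, adjusted p = 0.0514). Without p150DN library 3 it passed (limma, adjusted p = 0.0313). In all, 14 of the 26 genes had p150DN libraries above every EGFP library, where 34.3% of all genes tested did, and 1 had them below, where 15.5% did. Nsdhl and Hsd17b7, which work with Msmo1 in removing sterol methyl groups, did not pass. Nsdhl stood at 1.79, 3.76 and 4.05 FPKM in p150DN libraries and at 1.08, 0.847 and 2.21 FPKM in EGFP libraries (limma, adjusted p = 0.0644), and without p150DN library 1 or EGFP 8-cell library 3 it passed (limma, adjusted p = 0.0191 and 0.0394). Hsd17b7 stood at 2.94, 3.33 and 2.10 FPKM in p150DN libraries, against 1.48, 1.85 and 1.02 FPKM in EGFP libraries (limma, adjusted p = 0.0549). Its groups did not overlap. Dhcr7, the reductase of the last step, averaged 14.6 ± 1.30 FPKM (SD, n = 3) in p150DN embryos, against 14.2 ± 3.66 FPKM (SD, n = 3) in EGFP 8-cell embryos. Tm7sf2 averaged 0.66 ± 0.321 FPKM (SD, n = 3) in p150DN embryos, against 1 ± 0.141 FPKM (SD, n = 3) in EGFP 8-cell embryos, on 11 to 32 fragments per library.

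Both SREBP genes were called higher in p150DN embryos, but Srebf2 entered through its p150DN values and was not called with no filter. Srebf1 (chromosome 11, 60199084 to 60224186) stood at 6.01, 7.99 and 7.88 FPKM in p150DN libraries, against 3.40, 4.01 and 4.19 FPKM in EGFP 8-cell libraries. The groups did not overlap, and the log2 fold change was 0.76 ± 0.18 (SE; limma, adjusted p = 0.013). The call was lost without p150DN library 3 or EGFP 8-cell library 1 (limma, adjusted p = 0.0523 and 0.058). Srebf2 (chromosome 15, 82147269 to 82205379) stood at 1.31, 2.57 and 3.19 FPKM, against 0.757, 0.844 and 0.928 FPKM in EGFP 8-cell libraries. Its p150DN library 1 lay nearest to the EGFP values, and the log2 fold change was 0.82 ± 0.25 (SE; limma, adjusted p = 0.0315). The Srebf2 call was lost when p150DN library 2 or 3, or any one of the EGFP 8-cell libraries, was left out (limma, adjusted p between 0.0684 and 0.106). The ratio of Srebf2 to Srebf1 was 0.218, 0.322 and 0.405 in p150DN libraries and 0.223, 0.21 and 0.222 in EGFP 8-cell libraries, so library 1 of p150DN lay within the EGFP range.

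The 2 Insig genes were called higher and Scap did not pass. Insig2, like Srebf2, entered through its p150DN values and was not called with no filter. Insig1 (chromosome 5, 28071412 to 28078662) stood at 12.8, 24.5 and 29.7 FPKM in p150DN libraries, against 8.03, 7.56 and 8.07 FPKM in EGFP libraries. The EGFP libraries were nearly level and the p150DN libraries spread widely above them, with a log2 fold change of 1.31 (limma, SE 0.27, adjusted p = 0.00683). Insig2 stood at 1.08, 1.35 and 1.21 FPKM, against 0.358, 0.268 and 0.648 FPKM in EGFP libraries (log2 fold change 0.64 ± 0.20 SE; limma, adjusted p = 0.034). Its call was lost without p150DN library 2 or 3 and without EGFP 8-cell library 1 or 2 (limma, adjusted p between 0.0743 and 0.113). Scap stood at 10.4, 14 and 11.3 FPKM in p150DN libraries and at 12.7, 14.1 and 13.3 FPKM in EGFP libraries, a log2 difference of -0.17 (95% interval -0.53 to 0.20). The ratio of Insig1 to Scap was 1.23, 1.75 and 2.62 in p150DN libraries, against 0.632, 0.534 and 0.606 in EGFP 8-cell libraries, with no overlap.

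Of the sterol transport genes, Stard4 and Npc1 rose. Stard4, which carries sterol through the cytosol, stood at 16.3, 14.7 and 15.3 FPKM in p150DN libraries, against 5.56, 6.28 and 8.15 FPKM in EGFP libraries (log2 fold change 1.11 ± 0.17 SE; limma, adjusted p = 0.00207). Npc1, which exports cholesterol from late endosomes and lysosomes, stood at 18.5, 19.6 and 21.6 FPKM, against 9.33, 9.84 and 10.3 FPKM in EGFP libraries (log2 fold change 0.95 ± 0.14 SE; limma, adjusted p = 0.00174). For both genes every p150DN library lay above every EGFP library, although the EGFP libraries of Stard4 spread from 5.56 to 8.15 FPKM. Npc2, which hands cholesterol to Npc1 inside the lysosome, stood at 53.1, 63.7 and 49.9 FPKM in p150DN libraries and at 48.2, 53 and 53.2 FPKM in EGFP libraries (95% interval of the log2 difference -0.20 to 0.40).

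**Figure D2:**
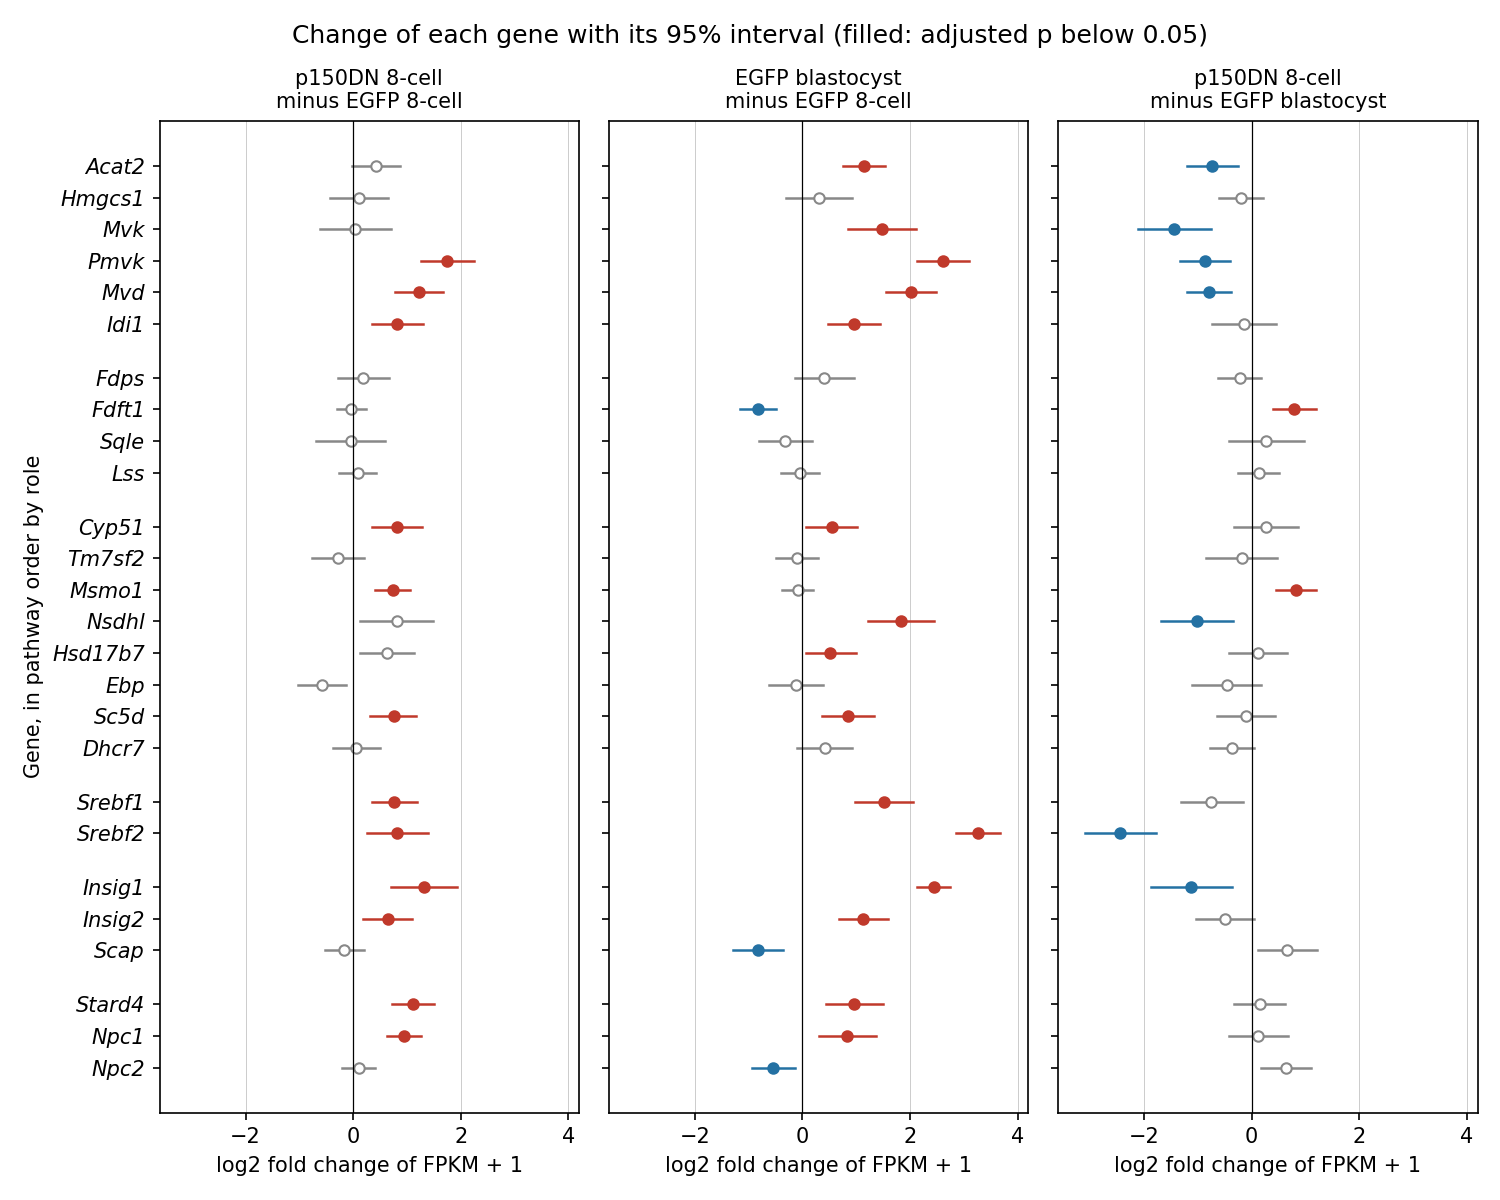
Log2 fold change of each gene on the log2(FPKM + 1) scale, with its 95% interval, in the 3 comparisons. Filled points have a limma adjusted p below 0.05 over all genes tested. For p150DN against EGFP 8-cell embryos 12 points are filled, all to the right of 0, and for p150DN embryos against blastocysts 2 are filled to the right and 7 to the left.

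The rise of 6 genes, Pmvk, Mvd, Msmo1, Insig1, Stard4 and Npc1, passed when any single library was left out. How many of all genes kept their call in the same way was not counted. The number of the 26 genes that rose was 7 without p150DN library 3 or without EGFP 8-cell library 1. Over all genes tested, the number called higher also dropped in these 2 runs, from 2887 to 1922 and 1875. Without both p150DN libraries 2 and 3, which held the most genes above 0, 6 rose and Ebp fell, and the calls of Srebf1, Srebf2, Insig1, Insig2, Cyp51 and Sc5d were lost. The single p150DN library is then assumed to vary like the EGFP 8-cell libraries. The scale also mattered for the background. With median-of-ratios scaling 1753 genes were called higher and 2239 lower, and with quantile normalization 1748 and 1827, against 2887 and 1136 on the deposited scale. With median-of-ratios scaling 9 of the 26 genes rose and 1 fell (Ebp), the calls of Msmo1, Idi1 and Insig2 being lost. With quantile normalization 6 rose and 2 fell (Ebp and Tm7sf2), the calls of Idi1, Cyp51, Sc5d, Srebf1, Srebf2 and Insig2 being lost. The scaling moved the median over all genes from 0.19 to -0.06 or -0.04, and the median of the 26 genes lay 0.51 or 0.26 above it, beside 0.45 on the deposited scale.

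The second comparison asked how the same genes differ between the blastocyst and the 8-cell stage in EGFP embryos. In blastocysts 15 of the 26 genes were higher, 3 were lower (Fdft1, Scap and Npc2) and 8 did not pass in limma. Across all 12199 genes tested, 42.6% were called higher and 24.9% lower, 67.5% in all. The median log2 fold change was 0.69 for the 26 genes and 0.28 for all genes tested. The blastocyst libraries of 15 genes lay above every 8-cell library and those of 3 lay below, where 49.3% and 30.3% of all genes tested did. With median-of-ratios scaling 13 were higher and 3 lower, the calls of Hsd17b7 and Cyp51 being lost. With quantile normalization 10 were higher and 4 lower, those of Hsd17b7, Cyp51, Sc5d, Idi1 and Npc1 being lost and Lss being called lower. By role, 5 of 6 early enzymes, 4 of 8 sterol enzymes, both SREBP genes, both Insig genes, Stard4 and Npc1 were higher. This comparison uses the same EGFP 8-cell libraries as the first, so the 2 sets of fold changes are not independent.

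Srebf2 gave the largest log2 fold change of the 26 genes, at 18.4 and 15.1 FPKM in blastocysts, against 0.757, 0.844 and 0.928 FPKM in EGFP 8-cell libraries. Its mean was 19.9 times that of the 8-cell embryos, and the log2 fold change was 3.26 ± 0.17 (SE; limma, adjusted p = 2.23e-05). Srebf1 stood at 16.5 and 9.93 FPKM, against 3.40, 4.01 and 4.19 FPKM in 8-cell embryos (log2 fold change 1.51 ± 0.23 SE; limma, adjusted p = 0.00102). Srebf2 and Insig2 entered this comparison, as the first, through the group where they are high. Here both also passed with no filter on low values, whereas in the first comparison neither did. The ratio of Srebf2 to Srebf1 was 1.12 and 1.52 in blastocysts, against 0.21 to 0.223 in EGFP 8-cell libraries, so that Srebf2 stood above Srebf1 per length in both blastocyst libraries and below it in every 8-cell library. Insig1 stood at 50.9 and 43.8 FPKM in blastocysts, against 7.56 to 8.07 FPKM in 8-cell embryos (log2 fold change 2.44 ± 0.13 SE; limma, adjusted p = 2.4e-05). Insig2 was also higher, at 1.80 and 2.44 FPKM, against 0.268 to 0.648 FPKM (log2 fold change 1.13 ± 0.19 SE; limma, adjusted p = 0.0017). Scap was lower, at 8.97 and 5.56 FPKM in blastocysts, against 12.7, 14.1 and 13.3 FPKM in 8-cell embryos (log2 fold change -0.83 ± 0.20 SE; limma, adjusted p = 0.00855). The Scap call was lost without blastocyst library 2 (limma, adjusted p = 0.0569). The ratio of Insig1 to Scap was 5.67 and 7.88 in blastocysts, against 0.534 to 0.632 in EGFP 8-cell libraries.

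The mevalonate kinases and the decarboxylase were each higher in blastocysts. Pmvk stood at 18.3 and 21.2 FPKM, against 3.15, 1.97 and 2.12 FPKM in 8-cell embryos (log2 fold change 2.62 ± 0.20 SE; limma, adjusted p = 6.54e-05). Mvd stood at 8.12 and 8.90 FPKM, against 1.03, 1.25 and 1.80 FPKM (log2 fold change 2.02 ± 0.20 SE; limma, adjusted p = 0.000152). Mvk stood at 5.19 and 6.52 FPKM, against 0.915, 1.26 and 2.39 FPKM (log2 fold change 1.48 ± 0.27 SE; limma, adjusted p = 0.00234). None of the 3 overlapped between the stages. Acat2 was higher too, at 9.03 and 9.21 FPKM, against 3.35, 4.10 and 3.29 FPKM (log2 fold change 1.15 ± 0.16 SE; limma, adjusted p = 0.000786), as was Idi1, at 6.43 and 9.62 FPKM, against 3.87, 3.67 and 3.16 FPKM (0.96 ± 0.20 SE; adjusted p = 0.0048). The Idi1 call was lost without blastocyst library 2 (limma, adjusted p = 0.0537). Hmgcs1, at 27.5 and 30.5 FPKM in blastocysts, was the early enzyme that did not pass (95% interval of the log2 difference -0.30 to 0.92), and without EGFP 8-cell library 2, its highest 8-cell library, it did (limma, adjusted p = 0.00676).

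Fdft1, the first enzyme committed to sterols, was lower in blastocysts. It stood at 25.7 and 33.9 FPKM, against 54.9, 51.3 and 53.4 FPKM in EGFP 8-cell embryos (log2 fold change -0.83 ± 0.14 SE; limma, adjusted p = 0.00173), and this call passed without any single library. Its neighbours in the pathway did not pass. Fdps stood at 52.3 and 61.9 FPKM in blastocysts, within the 8-cell range of 33.2 to 58.8 FPKM at its lower library, and it passed without EGFP 8-cell library 2 (limma, adjusted p = 0.00823). Sqle stood at 18.2 and 17.5 FPKM, against 22.7, 28.9 and 17.4 FPKM in 8-cell embryos, and passed as lower without EGFP 8-cell library 3 (limma, adjusted p = 0.0349). Lss overlapped as well, at 6.74 and 7.07 FPKM in blastocysts and 6.74 to 7.41 FPKM in 8-cell embryos.

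Of the sterol enzymes, Nsdhl differed most, at 7.22 and 7.20 FPKM in blastocysts, against 1.08, 0.847 and 2.21 FPKM in EGFP 8-cell libraries (log2 fold change 1.83 ± 0.26 SE; limma, adjusted p = 0.000752). Sc5d was higher, at 7.67 and 5.04 FPKM, against 2.88 to 3.24 FPKM (log2 fold change 0.85 ± 0.20 SE; limma, adjusted p = 0.00786). Cyp51, at 5.81 and 3.85 FPKM, and Hsd17b7, at 2.45 and 2.51 FPKM, passed narrowly (limma, adjusted p = 0.045 and 0.0491). Single libraries decided several of these calls. Sc5d was lost without blastocyst library 1 (limma, adjusted p = 0.0703), Cyp51 without blastocyst library 1, EGFP 8-cell library 1 or EGFP 8-cell library 3 (0.284, 0.0967 and 0.0969), and Hsd17b7 without either blastocyst library or EGFP 8-cell library 1 or 3 (0.0884 to 0.164). Msmo1 overlapped between the stages, at 25.1 and 24.3 FPKM in blastocysts and 27.1, 24 and 28 FPKM in 8-cell embryos. Ebp stood at 24.4 and 15.3 FPKM in blastocysts and did not pass. Dhcr7, at 21.3 and 16.8 FPKM, did not pass either, except without EGFP 8-cell library 3, where it was higher in blastocysts (limma, adjusted p = 0.0225). Tm7sf2, at 1.01 and 0.722 FPKM in blastocysts, overlapped with the 8-cell libraries.

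The transport genes of the lysosome moved in opposite directions between the stages. Npc1 was higher in blastocysts, at 23.9 and 13.8 FPKM, against 9.33, 9.84 and 10.3 FPKM in EGFP 8-cell embryos (log2 fold change 0.83 ± 0.22 SE; limma, adjusted p = 0.0138). Npc2 was lower, at 42.2 and 29.2 FPKM, against 48.2, 53 and 53.2 FPKM (log2 fold change -0.54 ± 0.17 SE; limma, adjusted p = 0.0236). The blastocyst libraries differed from each other in both genes, library 1 being the higher. Npc1 was lost without blastocyst library 1 (limma, adjusted p = 0.0854), and Npc2 without blastocyst library 2 or EGFP 8-cell library 3 (limma, adjusted p = 0.133 and 0.0556). Stard4 stood at 11.2 and 17 FPKM in blastocysts, against 5.56 to 8.15 FPKM in 8-cell embryos (log2 fold change 0.96 ± 0.23 SE; limma, adjusted p = 0.00767), and was lost without blastocyst library 2 (limma, adjusted p = 0.0903).

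**Figure D3:**
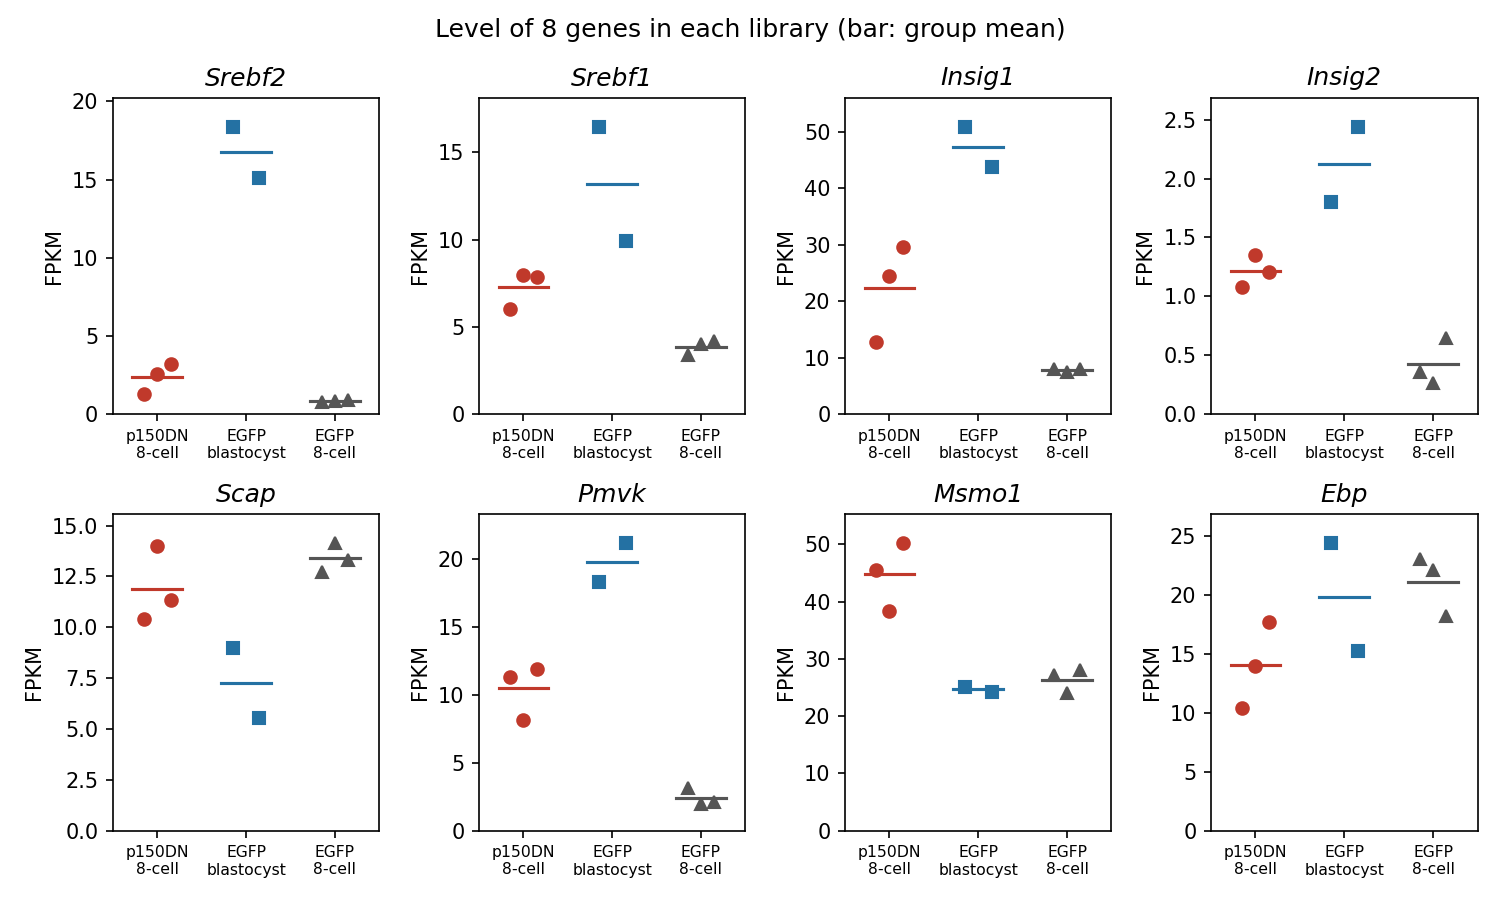
FPKM in every library for Srebf2, Srebf1, Insig1, Insig2, Scap, Pmvk, Msmo1 and Ebp, with one dot per library and a bar at the group mean. Groups run from p150DN 8-cell through EGFP blastocyst to EGFP 8-cell. The p150DN dots of Srebf2, Srebf1, Insig1, Insig2 and Pmvk lie between the other groups, and those of Msmo1 lie above both.

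The third comparison set p150DN 8-cell embryos beside EGFP blastocysts, the later stage. In p150DN embryos 2 of the 26 genes were higher, 7 were lower and 17 did not pass in limma. Across all 12648 genes tested, 11.9% were called higher and 14.2% lower, 26.1% in all. The median log2 fold change was -0.19 for the 26 genes and -0.05 for all genes tested. The p150DN libraries of 5 genes lay above both blastocyst libraries and those of 10 lay below, where 27.1% and 33.8% of all genes tested did. Srebf2 differed most, at 1.31, 2.57 and 3.19 FPKM in p150DN libraries, against 18.4 and 15.1 FPKM in blastocysts (log2 fold change -2.44 ± 0.28 SE; limma, adjusted p = 0.00381). Mvk, whose p150DN libraries held 0.797 to 2.12 FPKM, was lower by a log2 fold change of -1.44 (limma, SE 0.29, adjusted p = 0.0154). Insig1 (-1.13), Nsdhl (-1.01), Pmvk (-0.87), Mvd (-0.79) and Acat2 (-0.73) were the other genes lower in p150DN embryos by their log2 fold change (limma, adjusted p between 0.0192 and 0.0408). The 2 genes higher in p150DN embryos were Msmo1, at 45.5, 38.4 and 50.2 FPKM against 25.1 and 24.3 FPKM in blastocysts (log2 fold change 0.82 ± 0.16 SE; limma, adjusted p = 0.0137), and Fdft1, with a log2 fold change of 0.79 (limma, SE 0.17, adjusted p = 0.0185). Npc2 (0.64; limma, adjusted p = 0.0503) and Srebf1 (-0.75; limma, adjusted p = 0.061) lay just outside the threshold.

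With either blastocyst library left out, none of the 26 genes passed in limma, and 116 or 79 genes passed in all. The single remaining blastocyst is then assumed to vary like the p150DN libraries. The median log2 fold change of the 26 genes was then -0.17 without blastocyst library 1, beside -0.06 over all genes tested. Without blastocyst library 2 it was -0.28, beside -0.04. Fewer genes were also lower without p150DN library 2, where 4 of the 7 remained (Srebf2, Mvk, Pmvk and Mvd), and Acat2 was lost without p150DN library 3 (limma, adjusted p = 0.0587). Sqle passed as higher in p150DN embryos without p150DN library 1 (limma, adjusted p = 0.0456). Without p150DN libraries 2 and 3, 1 gene was higher and 3 were lower, the single p150DN library being assumed to vary like the blastocysts. With no filter on low values 1 gene, Srebf2, remained lower.

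Read across the 3 groups, the genes did not move as one set. All p150DN libraries of 6 genes, Pmvk, Mvd, Srebf1, Srebf2, Insig1 and Insig2, lay above the EGFP 8-cell and below the blastocyst libraries, where 19% of the 11340 genes tested in all 3 comparisons did. These 6 are 23.1% of the 26 genes, close to that background. For 2 genes, Msmo1 and Lss, every p150DN library lay above both other groups, as for 4.15% of those genes. Msmo1 was called higher in p150DN embryos against each of the other groups and did not pass between the stages. Acat2, Mvk and Nsdhl were called higher in blastocysts and lower in p150DN embryos than in blastocysts, and did not pass between p150DN and EGFP 8-cell embryos. Hmgcs1, Fdps, Sqle, Lss, Tm7sf2, Ebp and Dhcr7 passed in none of the 3 comparisons. The summed level of the 6 early enzymes was 57.1, 45.8 and 59.7 FPKM in p150DN libraries, 74.6 and 86 FPKM in blastocysts and 31.4, 46.6 and 31.7 FPKM in EGFP 8-cell libraries. In every library Hmgcs1 was the largest term of that sum. The 4 isoprenoid and squalene enzymes summed to 126, 133 and 136 FPKM in p150DN libraries, 103 and 120 FPKM in blastocysts and 124, 146 and 111 FPKM in EGFP 8-cell libraries. Both other groups overlapped the EGFP 8-cell range in this sum.

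**Figure D4:**
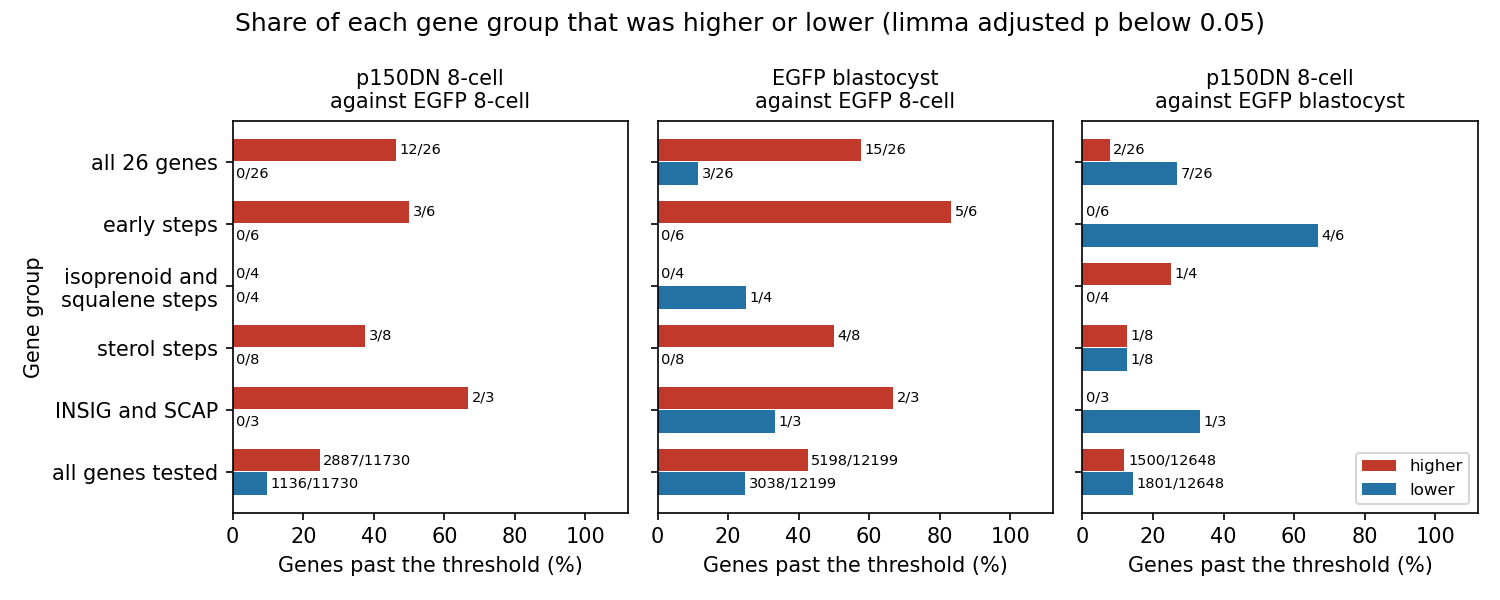
Percent of genes called higher or lower (limma, adjusted p below 0.05) in the 3 comparisons. Bars cover the 26 genes, the early, isoprenoid and squalene, and sterol enzymes, the Insig genes with Scap, and all genes tested. The SREBP genes and the transport genes are not drawn as groups. For p150DN against EGFP 8-cell embryos 46.2% of the 26 genes were higher, beside 24.6% of all genes, and 0% of the 4 isoprenoid and squalene enzymes. Groups of 3 to 8 genes give coarse shares.

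Neighbouring parts of sterol metabolism were read from 6 lists of 82 further genes. Between p150DN and EGFP 8-cell embryos 20 of the 70 genes tested rose (28.6%) and 4 fell (5.71%), near the 24.6% and 9.68% of all genes tested. The single lists hold 6 to 17 tested genes each, and their counts are to be read against the same shares. Among fatty acid genes that SREBP1 is known to activate, 5 of 11 rose and 1 fell. The desaturase gene Scd2 averaged 40.9 ± 10.9 FPKM (SD, n = 3) in p150DN embryos, against 1.12 ± 0.497 FPKM (SD, n = 3) in EGFP 8-cell embryos, with a log2 fold change of 4.30 (limma, adjusted p = 4.42e-05), Lpin1 had a log2 fold change of 2.10 and the ATP citrate lyase gene Acly one of 0.97. Of 8 genes of sterol esters, efflux and the sterol receptor LXR, 4 rose and 1 fell, with the efflux pump gene Abca1 (log2 fold change 1.59) and Apoe (1.14) higher and the LXR receptor gene Nr1h3 lower (-1.38). Abca2, among the 4 that rose, averaged 0.355 ± 0.0589 FPKM in EGFP 8-cell embryos (SD, n = 3) and entered through its p150DN values. Of 6 lipoprotein receptor genes 2 rose, Lrp2 (4.48) and its partner Cubn (1.46), both known from absorptive epithelia. Of 12 intracellular sterol transport genes 4 rose, with Scarb2 (0.71), Osbpl8 (0.70) and Stard3 (0.67) the largest. Of 17 genes of SREBP processing and sterol sensing 3 rose and 1 fell, among them Pgrmc1 (1.30), Vcp (0.95) and Syvn1 (0.88), and of 16 genes of the non-sterol isoprenoid branch 2 rose and 1 fell, with the farnesyltransferase subunit genes Fntb (1.01) and Fnta (0.47) higher and the protease gene Zmpste24 lower (-0.46).

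In blastocysts against EGFP 8-cell embryos 41 of the 74 genes tested on these lists were higher (55.4%) and 16 lower (21.6%), beside 42.6% and 24.9% of all genes tested. All 8 called genes of the SREBP1 fatty acid list, of 11 tested, were higher, and Scd2 averaged 113 ± 26.8 FPKM in blastocysts (SD, n = 2) and 1.12 ± 0.497 FPKM in 8-cell embryos (SD, n = 3; log2 fold change 5.76; limma, adjusted p = 1.61e-05). The isoprenoid branch had 10 of 16 higher and 3 lower, SREBP processing 7 of 17 (41.2%) and 6 (35.3%), the efflux and LXR list 5 of 9 and 3, the lipoprotein receptors 3 of 7 and 1, and sterol transport 8 of 14 and 3. Abca2, Mylip, Lrp8 and Gramd1a, counted here as higher, had means of 0.168 to 0.481 FPKM in 8-cell embryos. They entered through their blastocyst values. Sorl1, the lipoprotein receptor gene counted as lower, averaged 0.535 ± 0.0547 FPKM in blastocysts (SD, n = 2) and 1.14 ± 0.0624 FPKM in 8-cell embryos (SD, n = 3). It entered through its 8-cell values. Nr1h3 was lower in blastocysts by a log2 fold change of -2.64 and Lamp2, a lysosomal membrane protein gene, by -1.78. Between p150DN embryos and blastocysts 6 of the 73 genes tested were higher (8.22%) and 7 lower (9.59%), beside 11.9% and 14.2% of all genes tested. The 4 fatty acid genes called there were all lower in p150DN embryos, with Scd1 at 23.2 ± 1.87 FPKM in p150DN (SD, n = 3) and 70.8 ± 11.6 FPKM in blastocysts (SD, n = 2; log2 fold change -1.56; limma, adjusted p = 0.00307).

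Some of these values may carry an uncertainty of counting. Of the 26 genes, 10 overlap another RefSeq gene by their whole span on either strand, among them Fdft1 with Ctsb, Srebf1 with Rai1, Npc1 with Rmc1, Tm7sf2 with Vps51 and Srebf2 with the microRNA gene Mir33. Whether exons overlap was not examined, so an overlap may lie in an intron. The library kit marks strand, but whether the counting used strand is not given in the sources used here. Reads in exons that overlap, where there are any, therefore cannot be assigned with certainty.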

How the data were processed

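RNA-seq libraries make up 8 of the 73 samples, and the other 65 were not analysed here. Per the labels' protocols, total RNA went into a SMART-seq kit that keeps strand. The submitters' processing notes list HISAT2, featureCounts, Bowtie2, SAMtools and Trim Galore, with no version or role, and build mm10. The authors deposited FPKM values (fragments per length of gene, scaled to each library's total), which hide any change in RNA per embryo. Columns named for 8-cell embryos without a treatment were taken as EGFP 8-cell libraries. Fragments were recovered from the worth of 1 fragment in short RNA genes, and came out whole within 0.02 fragments for all 26 genes. Across genes, replicates correlated at r of 0.977 to 0.992. Coordinates and promoter windows come from RefSeq (GRCm38.p6), which 24920 symbols matched.

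The test was limma 3.58.1 (R 4.3.3; lmFit, then eBayes with a mean-variance trend), two-sided, on log2(FPKM + 1), a scale that understates changes of low genes. A gene was fitted where 3 libraries (p150DN against EGFP 8-cell) or 2 libraries (other comparisons) reached 1 FPKM. Only the compared groups entered, p-values were Benjamini-Hochberg adjusted over all genes tested, and values below 0.05 were called. The steps were tested on simulated data. Each gene was named with its level, those that passed with their libraries, and, per further list, up to 3 passing genes of at least 5 FPKM by size of change. The 26 genes, the lists and the tests were chosen with earlier results of these data known. Alternatives changed the pseudocount, filter, scaling, trend, samples fitted and replicate block, or left out libraries.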

Additional observations from a re-analysis of the deposited data

How the results depend on the processing

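No gene of the 26 reversed its direction past the threshold in any comparison under any alternative run. Between p150DN and EGFP 8-cell embryos, a filter of 5 FPKM left 16 of the 26 genes, of which 7 rose and 1 fell, and the median of those 16 lay 0.05 above that of all genes tested, beside 0.45 for the 26 genes under the filter of 1 FPKM. Median-of-ratios scaling gave 1 lower gene, and quantile normalization gave 6 higher and 2 lower. With single libraries left out, 2538 to 4066 genes were called in all, 7 to 13 of the 26 were higher and 0 to 1 lower. Without p150DN libraries 2 and 3 together, an alternative chosen after seeing the data, 2483 genes were called in all, 6 of the 26 were higher and 1 lower. With no filter 10 were higher, without Srebf2 and Insig2. In blastocysts against EGFP 8-cell embryos, 1 to 3 of the 26 were lower with single libraries left out. Scaling moved the split of all calls there from 5198 higher and 3038 lower to 4289 and 3751 (median-of-ratios) or 3997 and 3902 (quantile). Between p150DN embryos and blastocysts, no filter gave 1555 calls in all with 1 of the 26 lower, and one fit over all 8 libraries gave 4 higher. With single libraries left out, 79 to 4152 genes were called in all, 0 to 3 of the 26 were higher and 0 to 7 lower. Without p150DN libraries 2 and 3, 1079 were called in all, 1 of the 26 higher and 3 lower. Calls that passed in every alternative that tested the gene were 4 (Pmvk, Mvd, Stard4 and Npc1), 10 and 0 in the 3 comparisons. The share of all genes that did so was not computed, so these counts have no background. In the third comparison, the runs with a single blastocyst library, where few genes of the whole table passed, already removed every call. Whether replicate numbers pair the samples cannot be decided from groups of 2 and 3 libraries. Deviations of same-numbered p150DN and EGFP 8-cell libraries correlated at 0.06, 0.10 and 0.04. Those of libraries with different numbers correlated at -0.11 to 0.07, and not every library correlated best with its own number. With a replicate block, 13, 14 and 3 of the 26 genes were higher and 0, 3 and 7 lower in the 3 comparisons. Between p150DN and EGFP 8-cell embryos the block lost Insig2 and gained Hsd17b7 and Nsdhl. Between the EGFP stages, where it leaves EGFP 8-cell library 3 without a partner, it lost Hsd17b7, Cyp51 and Npc2 and gained Dhcr7 and Sqle, and between p150DN embryos and blastocysts it gained Npc2. Depth limits mainly Tm7sf2, Insig2, Mvk, Nsdhl and Mvd, each with 40 fragments or fewer in at least 1 library. Groups of 2 and 3 libraries limit every result.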
